A study of Mus musculus with 14 samples.

Results

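The genes of DNA replication and nucleotide synthesis were a set of 41, chosen by name for what their proteins do, out of 18193 genes named on the array. They were followed in SCp2, a mouse mammary epithelial cell line, which was plated on 35 mm dishes in DMEM with 2% fetal calf serum and kept for 3 days without or with MMP3, a protease that cells secrete and that degrades matrix around them. RNA from 14 dishes (200 ng each) was put on 1 Affymetrix mouse array per dish. Experiment A had 6 arrays, a control and an MMP3 dish for each of the plating densities labelled 50K, 100K and 250K, and experiment B had 8 arrays, with a pair at 25K added to the same scheme. Every combination of agent and density was therefore 1 dish within an experiment, and the labels do not say whether dishes of an experiment came from separate cultures. With no repeated dish, the p-values rest on how far dishes lay from the fitted straight lines in log2 density. That spread mixes differences between dishes with any bend in the response to density, and the fits cannot part them.

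A dividing cell copies its DNA in ordered steps. The origin recognition complex, with Cdc6 and Cdt1, loads the ring of MCM proteins onto DNA, and Cdc45 and the GINS complex turn that ring into a working helicase. Primase and the polymerases then make new strands, replication factor C loads the sliding clamp PCNA, RPA coats single-stranded DNA, Fen1 and Lig1 finish the lagging strand, and ribonucleotide reductase, thymidylate synthase and thymidine kinase supply the building blocks. Many of these genes are known targets of E2F transcription factors and are expressed most in cells that enter S phase.

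The deposited log2 values are relative, since each probe set has its median over the 14 arrays at 0. A value of 1 therefore means a 2-fold higher signal than on the middle array, and the table gives differences between arrays but no level, so neither the abundance of one gene against another nor the absence of a cell type's markers can be read from it. A gene was tested when its SD over the 14 arrays was at least 0.049, the 40th percentile of probe sets, and 11812 genes were, with all 41 replication genes among them (SD from 0.24 to 1.33, median 0.60 against 0.38 over the tested genes). The tissue label could be checked only in part. Of 8 epithelial markers, 5 passed the SD filter, and in experiment A Cldn4, Epcam and Cdh1 were higher with MMP3 (log2 changes of 2.49, 1.18 and 0.89) and Krt5 was lower (-1.03). Of the markers of other cell types, 2 for fibroblasts, 3 for macrophages, 1 for adipocytes and 0 for endothelial cells passed the filter, and with limma 0 of those 6 changed with MMP3 in A (0 at an unadjusted p under 0.05). Of the 2 fibroblast markers, Dcn lay between -0.02 and 0.02 on 13 arrays and was 0.96 on MMP3 250K of B. Pdgfra and the macrophage markers are given beside the density slopes and the results of B.

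Some arrays of experiment B stood apart from their labels. Ifit1, an interferon-induced gene, lay between -2.98 and -2.91 on the controls of A and between 2.83 and 4.21 on its MMP3 arrays. Experiment B held 2 controls with high values, control 50K (3.71) and control 250K (4.26), and 2 MMP3 arrays with low ones, MMP3 25K (-2.83) and MMP3 100K (-2.97), so 4 of the 8 arrays of B went against their label by this gene. The array labelled MMP3 100K in B also had the widest spread, with an SD over genes of 0.87 against 0.23 to 0.41 on the other 13 arrays. In the order of deposit the 8 arrays of B alternated between low and high Ifit1. The arrays are named by their deposited labels, and no label was changed. Whether the labels of B match its dishes was not tested. If they do not, the MMP3 effects and density slopes given for B are those of the labels and not of the agent and the density. Fits that use B are therefore also given without these 4 arrays. Ifit1 was used here to sort arrays by agent only, so the density labels of the arrays of B that are kept were not checked.

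The start regions of these genes carry the letters that E2F proteins are known to bind more often than start regions at large. In windows of 300 bases, 250 before and 50 after the annotated start, the core TTTCGCGC or TTTGGCGC on either strand was found in 10 of the 33 replication genes with a window in the RefSeq table (30.3%), against 0.93% of all 27025 genes with one. The 10 were Mcm3, Mcm5, Mcm6, Mcm7, Cdt1, Orc1, Rfc3, Pola1, Pole2 and Lig1. Each core alone was in 6 of the 33 (18.2%), against 0.37% of genes for TTTCGCGC and 0.59% for TTTGGCGC. The NF-Y box CCAAT was in 22 of the 33 (66.7%, against 41.1%), and TTTGAA, the CHR element of many mitotic genes, was in 5 (15.2%, against 20.2%). A stretch of 60 bases from 3 of these windows shows how the cores lie, with the core letters in capitals. In Mcm5 and Mcm6 the capitals are 2 cores on opposite strands that overlap, and in Rfc3 they are 1 core close to the start. The sequences are from RefSeq, build GRCm38.p6, and are written 5′ to 3′ on the strand of the gene.
Mcm5, chr8:75109330-75109389, plus strand: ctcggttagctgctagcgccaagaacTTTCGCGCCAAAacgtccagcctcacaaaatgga
Mcm6, chr1:128359782-128359841, minus strand: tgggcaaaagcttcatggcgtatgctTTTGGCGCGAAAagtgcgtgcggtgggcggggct
Rfc3, chr5:151651209-151651268, minus strand: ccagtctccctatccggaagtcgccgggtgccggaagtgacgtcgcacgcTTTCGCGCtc
Counted in bases from the start, the Mcm5 stretch runs from -179 to -120, that of Mcm6 from -136 to -77 and that of Rfc3 from -60 to -1. Each stretch lies outside the annotated span of its own gene, and whether another gene covers it was not checked. A match describes the letters only, since the arrays measured no binding.

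In experiment A both the agent and the density went with lower expression of the set. The median over the 41 genes was 0.55 on the control array at 50K, 0.49 at 100K and -0.01 at 250K, and on the MMP3 arrays it was 0.01, 0.01 and -0.60. The complexes differed behind these medians. At 50K and 100K with MMP3 the MCM median was 0.23 and 0.18, above its control at 250K (-0.31), while that of the clamp and its loader was 0.001 and -0.01, below its control at 250K (0.24). In bulk RNA, fewer cells in S phase and less of these RNAs in each cell cannot be told apart.

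**Figure D1:**
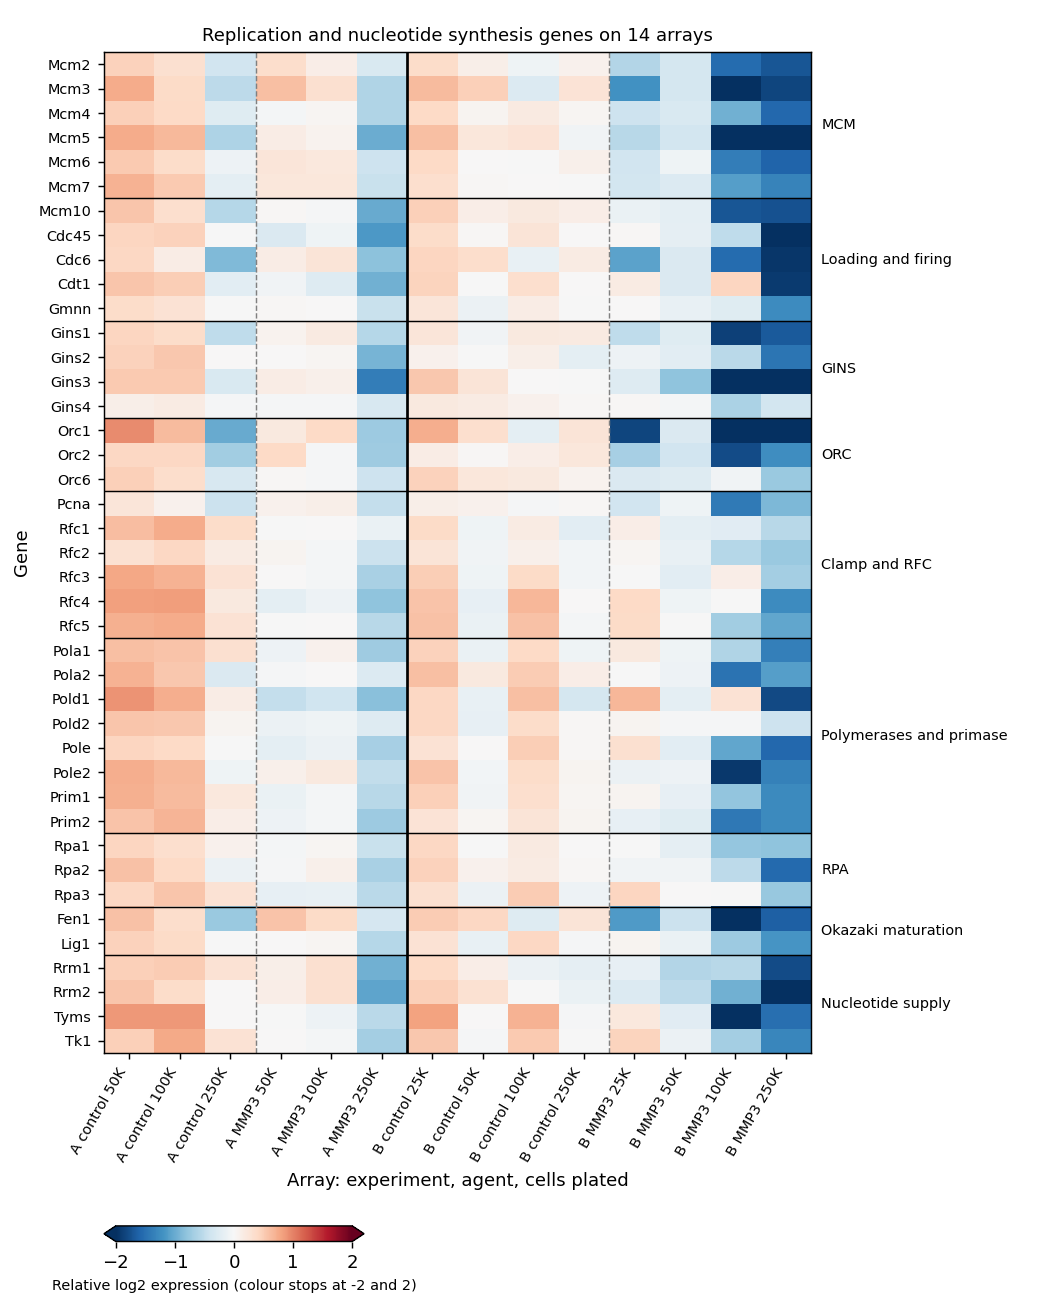
Relative log2 expression of the 41 genes (vertical axis, grouped by complex) on the 14 arrays (horizontal axis, by experiment, agent and cells plated), as colour from blue (low) to red (high) that stops at -2 and 2. In experiment A the array medians run from 0.55 on control 50K to -0.60 on MMP3 250K, and in experiment B the lowest columns are the arrays labelled MMP3 100K and MMP3 250K, with medians of -0.79 and -1.36.

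The first question of the design was what MMP3 does, and the fit to experiment A gave the MMP3 effect at its mean log2 density. With limma (adjusted p under 0.05 over all genes tested) 11 of the 41 genes fell and 0 rose, where 10.5% of all tested genes fell and 25.1% changed in either direction. An unadjusted p under 0.05 was reached by 22 of the 41, all of them lower, where 19.3% of all tested genes were lower at that p, and 40 of the 41 effects were negative, as were 54.2% over all tested genes. The median effect was -0.50, against -0.02 over all tested genes. MMP3 was below control at 50K for 41 of 41 genes, at 100K for 38 (all but Cdc6, Pcna and Fen1) and at 250K for 36. It was below control in every pair for 35 genes (37.4% of all tested genes), and for 17 all 3 MMP3 arrays were below all 3 controls (23.3% of all tested genes). The fit left 2 residual degrees of freedom. Leaving out any 1 of the 6 arrays gave 0 calls by limma, with 11 to 28 genes at an unadjusted p under 0.05 (11 without MMP3 250K, where the median effect was -0.30, and 14 without control 100K), and with no SD filter 1 gene was called. In A the 18S control signal (mean of 3 probe sets) was 0.54 to 0.69 on the controls and 0.77 to 0.95 on the MMP3 arrays, and the Gapdh 3′ minus 5′ difference was -0.03 to 0.03 and 0.04 to 0.17. The actin 3′ minus 5′ difference overlapped between the agents, at -0.05 to 0.11 and -0.15 to 0.09. Their part in the result was not tested.

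The clamp loader held the largest share of calls. Of the clamp and replication factor C, 5 of 6 genes fell with MMP3 in A: Rfc4 by 0.99 (SE 0.17, adjusted p = 0.038), Rfc3 by 0.81 (SE 0.11, adjusted p = 0.025), Rfc5 by 0.76, Rfc1, the large subunit, by 0.62, and Rfc2 by 0.43. Rfc4, a small subunit of the loader, was 0.82, 0.83 and 0.19 on the controls at 50K, 100K and 250K and -0.20, -0.10 and -0.81 on the MMP3 arrays, so the agents did not overlap, and the effect was a 1.98-fold lower signal. On the arrays labelled control in B it was 0.56, -0.17, 0.66 and 0.002 from 25K to 250K, and on those labelled MMP3 it was 0.39, -0.09, -0.002 and -1.26. There the groups overlapped, the controls at 50K and 250K lay below MMP3 25K, and the effect in B was -0.50 (SE 0.27, adjusted p = 0.54). Rfc5, Rfc4 and Rfc1 had effects of -0.60, -0.50 and -0.27 in B. Pcna, the clamp itself, did not follow the loader in A: its effect was -0.07 (SE 0.12, adjusted p = 0.72), and at 100K its MMP3 value of 0.11 was above the control value of 0.09. The Rfc4 value comes from a probe set that can share signal with other sequences, as those of Mcm4 and Mcm7 can.

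Among the polymerases and primase 3 of 8 genes fell in A. Pold1, the catalytic subunit of polymerase delta, had the largest effect of the 41, -1.16 (SE 0.11, adjusted p = 0.017), a 2.24-fold lower signal. It was 0.90, 0.72 and 0.15 on the controls of A and -0.47, -0.40 and -0.84 with MMP3, with all 3 MMP3 values below the lowest control. In B the arrays labelled control gave 0.41, -0.15, 0.61 and -0.35 and those labelled MMP3 gave 0.67, -0.20, 0.29 and -1.80 from 25K to 250K. The pairs in B disagreed, since MMP3 was above control at 25K, and the effect there was -0.39 (SE 0.38, adjusted p = 0.71). Prim1, the catalytic subunit of primase, fell by 0.76 (SE 0.12, adjusted p = 0.032) and Pold2, the second subunit of polymerase delta, by 0.53 (SE 0.09, adjusted p = 0.038). Prim2 (-0.75), Pola1 (-0.74), Pole (-0.60), Pole2 (-0.50) and Pola2 (-0.41) had negative effects in A at adjusted p between 0.05 and 0.12 and did not pass. Pole and Pola1 are the catalytic subunits of polymerases epsilon and alpha.

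In RPA and the nucleotide enzymes 1 gene of each group fell in A. Rpa3, the smallest RPA subunit, was 0.41, 0.55 and 0.29 on the controls and -0.16, -0.15 and -0.55 on the MMP3 arrays, a fall of 0.70 (SE 0.11, adjusted p = 0.031) with no overlap of the agents. Rpa3 in B was 0.33, -0.11, 0.51 and -0.11 on arrays labelled control and 0.44, 0.01, -0.01 and -0.76 on those labelled MMP3, so the sets overlapped and 2 of the 4 pairs, at 25K and 50K, had MMP3 above control. Rpa2 (-0.48) and Rpa1 (-0.44) did not pass. Tyms, thymidylate synthase, was 0.87, 0.86 and 0.002 on the controls of A and -0.001, -0.10 and -0.54 with MMP3. It fell by 0.79 (SE 0.15, adjusted p = 0.043), a 1.73-fold lower signal, though the control at 250K and the MMP3 dish at 50K differed by almost nothing. The call rests on 1 probe set: the other Tyms probe set past the filter gave -0.001, and the mean of the probe sets gave -0.21 (adjusted p = 0.18). Tyms in B was 0.81, 0.001, 0.70 and -0.02 in the dishes labelled control and 0.22, -0.22, -2.15 and -1.51 in those labelled MMP3, and its 2 lowest values were those of MMP3 100K and 250K. Tk1, thymidine kinase (-0.74), Rrm1 (-0.60) and Rrm2 (-0.51), the subunits of ribonucleotide reductase, did not pass in A, at adjusted p of 0.057, 0.18 and 0.23.

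Of the loading and firing factors 1 of 5 passed in A. Cdt1, which brings the MCM ring to origins, was 0.55, 0.49 and -0.22 on the controls and -0.07, -0.26 and -0.95 on the MMP3 arrays. It fell by 0.70 (SE 0.13, adjusted p = 0.041), and the control at 250K lay below the MMP3 dish at 50K. Cdt1 in B was 0.45, -0.002, 0.33 and 0.002 on arrays labelled control and 0.16, -0.29, 0.42 and -1.92 on those labelled MMP3, and at 100K it was the 1 gene of the 41 with MMP3 above control. Cdc45, a helicase subunit, had a larger effect in A, -0.80, but a wider error (SE 0.22, adjusted p = 0.089). Mcm10 (-0.44), Gmnn, the inhibitor of Cdt1 (-0.36), and Cdc6 (-0.04, SE 0.22) did not pass either.

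In the MCM ring, GINS, the origin recognition complex and the Okazaki enzymes limma called 0 of 15 genes for MMP3 in A. Gins2 (-0.63) and Lig1 (-0.46) had an unadjusted p under 0.05, and none of the MCM or ORC genes did. Mcm5, a subunit of the ring, was 0.74, 0.65 and -0.61 on the controls of A and 0.14, 0.06 and -0.997 with MMP3, an effect of -0.52 (SE 0.24, adjusted p = 0.20). Its control at 250K lay below both less crowded MMP3 dishes, so density parted the values more than the agent did. Mcm4 (-0.41), Mcm7 (-0.34), Mcm6 (-0.24), Mcm3 (-0.09) and Mcm2 (-0.07) had smaller effects. Gins3, a GINS subunit, was 0.53, 0.52 and -0.31 on the controls and 0.15, 0.10 and -1.39 with MMP3 (effect -0.63, SE 0.26, adjusted p = 0.18), and Gins1 and Gins4 had effects of -0.20 and -0.21. Orc1, the largest subunit of the origin complex, was 0.94, 0.63 and -1.001 on the controls and 0.20, 0.39 and -0.73 with MMP3. Its order turned at 250K, where the MMP3 dish was higher, and the effect was -0.23 (SE 0.29, adjusted p = 0.60). Orc6 (-0.30) and Orc2 (-0.16) were likewise not called. Fen1, the flap nuclease, was 0.59, 0.35 and -0.74 on the controls and 0.57, 0.38 and -0.33 with MMP3, and its effect of 0.14 (SE 0.15, adjusted p = 0.55) was the 1 positive effect of the 41. It was -0.01 after quantile normalization and -0.08 without control 250K, and the other Fen1 probe set past the filter gave -0.09.

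Density was the second factor of the design. In experiment A all 41 genes were lowest at 250K within each agent, where 30.4% of all tested genes were. With limma 0 of the 41 density slopes passed, as 0% of all tested genes did, and the lowest adjusted p among the 41 was 0.11. At an unadjusted p under 0.05, 31 of the 41 slopes were negative, where 14.2% of all tested genes were. All 41 slopes were below 0 in this fit, with a median of -0.28 per doubling of plated cells against -0.01 over all tested genes. The drop lay between 100K and 250K: from 50K to 100K only 30 of 41 genes were lower among the controls and 15 of 41 with MMP3. The result rested on both crowded dishes. Without the array labelled MMP3 250K the median slope was -0.12 and 1 of 41 had an unadjusted p under 0.05, and without control 250K these were -0.17 and 2. That p was reached by 13 genes without control 50K and by 20 without control 100K or with no SD filter. Without 1 of the crowded dishes the slopes of Cdc45, Rfc1, Pola1 and Rrm1 were at or above 0 (0.0002 to 0.06). Pdgfra, a fibroblast marker, moved the other way with density in A, at 0.87 per doubling (SE 0.17, unadjusted p = 0.011, adjusted p = 0.11 with limma), with -0.50, -0.24 and 2.15 on the controls and -0.99, -0.63 and 0.32 with MMP3. The mean of the 2 tested fibroblast markers of 7 ran from -0.24 to 1.07 on the controls and from -0.50 to 0.16 with MMP3. Dcn lay between -0.01 and 0.01 on the arrays of A, so this mean repeats Pdgfra. Slopes of the 3 macrophage markers in A ran from -0.01 to 0.45, with 0 at an unadjusted p under 0.05 by limma. The part of these markers in the result was not tested.

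Orc1 had the steepest slope, at -0.64 per doubling (SE 0.15, adjusted p = 0.12), Mcm5 at -0.55 (SE 0.12), Mcm3 at -0.54 (SE 0.06), Gins3 at -0.53 (SE 0.14), Cdc6 at -0.51 (SE 0.12), Fen1 at -0.49 (SE 0.08), Orc2 at -0.49 (SE 0.09) and Mcm10 at -0.48 (SE 0.09). The shallowest were Rfc1 at -0.09 (SE 0.05), Gins4 at -0.10 (SE 0.04), Rpa3 at -0.12 (SE 0.06) and Pold2 and Rfc2 at -0.14. Medians by complex were -0.49 for ORC, -0.36 for the loading and firing factors and the Okazaki enzymes, -0.34 for the MCM ring, -0.33 for GINS, -0.30 for nucleotide supply, -0.23 for the clamp and its loader, -0.22 for the polymerases and primase and -0.17 for RPA. None of these slopes passed the test, and differences between complexes were not tested.

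The factor with the larger change in A differed between genes. The MMP3 effect was larger in size than the change from 50K to 250K for 16 of the 41 genes, among them 5 of 6 of the clamp and its loader, 6 of 8 polymerase and primase genes, 2 of 3 RPA genes, 2 of 4 nucleotide enzymes and 1 of 5 loading factors. The density change was the larger for the other 25, which held the 6 MCM, 4 GINS and 3 ORC genes with Fen1 and Lig1. For 7 of the 41 (Gmnn, Gins2, Gins4, Rpa1, Lig1, Rrm1 and Tyms) both changes were within 0.1 of each other, so their side is not settled, and for Gins4 they were -0.21 and -0.22. Orc1, for instance, differed by -1.43 from 50K to 250K and by -0.23 between the agents, while Pold1 differed by -0.56 and -1.16. The loading factor among the 16, Cdc45, gave -0.80 for MMP3 on the probe set used and -0.10 on another. This is a description of 6 arrays with no test, and the same split was not counted over all tested genes.

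**Figure D2:**
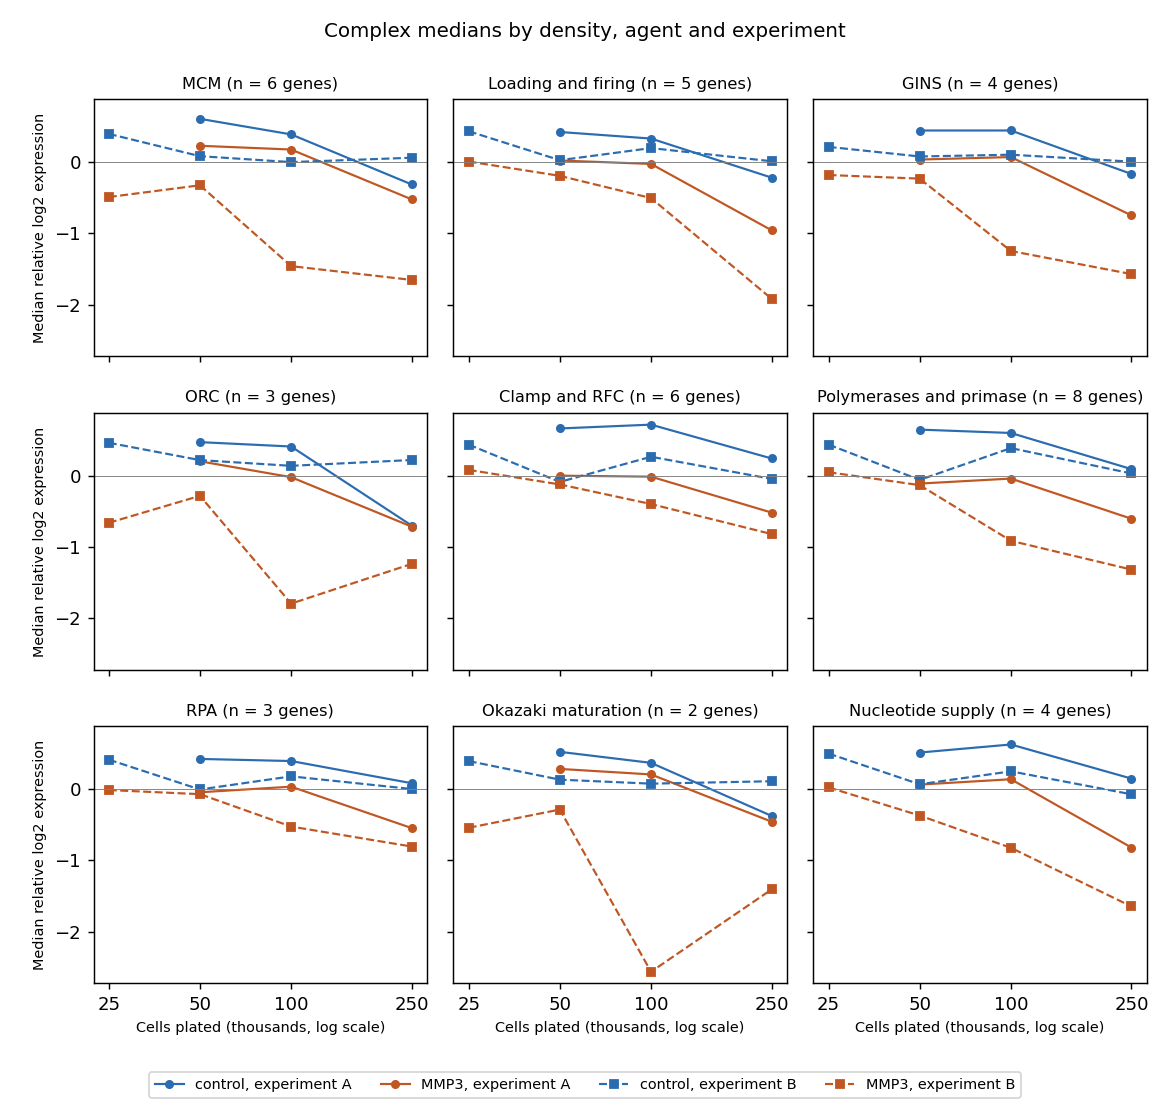
Median relative log2 expression of each complex (vertical axis) against cells plated (horizontal axis, log scale, in the units of the labels, K), for control (blue) and MMP3 (orange) in experiments A (solid) and B (dashed); each point is the median of 1 array over the genes of the complex. In experiment A the MMP3 and control lines lie apart at each density for the clamp and its loader (0.24 against -0.52 at 250K) and meet at 250K for ORC (-0.70 against -0.71).

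In experiment B the effect of the label MMP3 was negative for all 41 genes (Pold1 turned to 0.02 without MMP3 250K), with a median of -0.82 against 0.01 over all tested genes. Limma called 0 of the 41, as it called 0% of all tested genes, and 32 of the 41 were lower at an unadjusted p under 0.05, where 5.48% of all tested genes were. The array labelled MMP3 was below its control in every pair for 32 genes (17.2% of all tested genes), and for 22 all 4 MMP3 arrays lay below all 4 controls (5.39% of all tested genes). The array medians over the 41 genes were 0.42, 0.01, 0.19 and 0.01 in the controls from 25K to 250K and -0.07, -0.20, -0.79 and -1.36 with MMP3. Leaving out 1 array gave 24 genes (without control 250K) to 35 genes (without MMP3 100K) at an unadjusted p under 0.05. It was 26 without control 25K or control 100K, and 27 after quantile normalization. The median effect was -0.78 without MMP3 100K and ran from -0.89 to -0.66 over the arrays left out. Without the 4 arrays that went against their label by Ifit1, the model had no product of agent and density and 1 residual degree of freedom. In it the median effect was -0.74 and 9 genes were lower at an unadjusted p under 0.05, where 6.51% of all tested genes were. The actin 3′ minus 5′ difference was higher with the MMP3 label in each of the 4 pairs of B: -0.04, -0.34, 0.08 and -0.13 in the controls from 25K to 250K and 0.18, -0.12, 0.65 and 0.19 with MMP3. Pdgfra was also higher with the label (1.52, SE 0.54, unadjusted p = 0.033, adjusted p = 0.39 with limma). The mean of the 2 fibroblast markers ran from -0.65 to 0.31 in the controls and from 0.11 to 1.23 with MMP3. Dcn lay near 0 on the arrays of B other than MMP3 250K (0.96), so this mean mostly repeats Pdgfra. Among the 3 macrophage markers the effects of the label ran from -0.14 to 1.78 (lowest adjusted p = 0.52 with limma). Their density slopes in B ran from -0.05 to 0.45. In both, 0 of the 3 had an unadjusted p under 0.05. The part of the actin difference and of these markers in the result was not tested. The density slopes in B were also all negative (median -0.25), with 0 called by limma and 24 of 41 lower at an unadjusted p under 0.05, where 2.09% of all tested genes were. That p was reached by 2 slopes without control 250K, 5 without control 25K, 11 without MMP3 250K, 15 without MMP3 25K and 13 after quantile normalization, while the medians lay between -0.31 and -0.21. Without the 4 arrays, again with 1 residual degree of freedom, the median slope was -0.33 and 10 were negative at that p, where 4.76% of all tested genes were.

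The largest effects in the fit to all 8 arrays of B were those of Orc1, Fen1, Gins3, Mcm3 and Mcm5. Orc1 was 0.73, 0.34, -0.20 and 0.26 on the arrays labelled control from 25K to 250K and -1.84, -0.28, -3.05 and -3.07 on those labelled MMP3, an effect of -2.34 (SE 0.57, adjusted p = 0.31). All 4 of its MMP3 values lay below the lowest control. Fen1 was 0.50, 0.42, -0.26 and 0.26 in the controls and -1.13, -0.43, -4.39 and -1.63 with MMP3, and its lowest value is on the array with the widest spread (effect -2.13, SE 0.87, adjusted p = 0.44). Gins3 was 0.54, 0.26, 0.01 and -0.01 in the controls and -0.25, -0.81, -3.12 and -2.33 with MMP3 (effect -1.83, SE 0.43, adjusted p = 0.31). Mcm5 was 0.60, 0.23, 0.27 and -0.06 and then -0.56, -0.36, -2.28 and -2.19 (effect -1.61, SE 0.31, adjusted p = 0.31). In these last 3 genes too the agents did not overlap, and in all 4 genes the arrays labelled MMP3 100K and 250K were the lowest of the 8. Without the 4 arrays that went against their label the effects were -0.91 for Orc1 (SE 0.53), -0.62 for Fen1 (SE 0.16), -1.27 for Gins3 (SE 0.30) and -1.11 for Mcm5 (SE 0.46). Mcm3 went from -1.62 with all 8 arrays to -0.61 (SE 0.18). None of these was called, and Orc1, Fen1 and Mcm3 moved by over 1.5 times. Rpa3 (-0.24), Pold2 (-0.26) and Rfc1 (-0.27), at the other end, had the smallest effects in B.

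Across the 41 genes the order of effects in B depended on the 4 arrays. With all 8 arrays the MMP3 effect in B followed the density slope in A (Pearson r = 0.89, Spearman rho = 0.84), and ran against the MMP3 effect in A (r = -0.48, rho = -0.42). The density slopes of A and B correlated with r = 0.46 (rho = 0.47), and the MMP3 effect in A with the slope in B with r = 0.37 (rho = 0.38). Without the 4 arrays r was 0.53 (rho = 0.51) between the MMP3 effects and 0.79 (rho = 0.80) between the density slopes, while the slope in A against the MMP3 effect in B gave r = 0.41 (rho = 0.40) and the MMP3 effect in A against the slope in B gave r = -0.22 (rho = -0.17). The 2 experiments share no array, but their values were centred together, the genes are not independent replicates and these figures carry no p. The fit to B without the 4 arrays also has no density that both agents share, and its density labels were not checked. Whether the MMP3 effect differed between A and B was tested on the 12 arrays at shared densities. Limma called 0 of the 41, and 5 had an unadjusted p under 0.05, each more negative in B, where 5.25% of all tested genes were at that p in this direction and 11.4% in either. They were Orc1 (-2.03, SE 0.87), Mcm3 (-1.46), Cdc6 (-1.34), Mcm2 (-1.16) and Orc2 (-1.11), all at adjusted p = 0.435. Leaving out 1 array moved that count from 0 (without control 250K of A) to 19 (without MMP3 50K of B), and the median difference of -0.33 was -0.01 after quantile normalization and -0.41, with 6 genes at that p, without the 3 of these arrays that went against their label. The density slopes differed by a median of 0.03, with 0 called and 0 at an unadjusted p under 0.05, and this median turned to -0.22 without the 3 of these arrays of B that went against their label. For the MMP3 effect, 1 of the 3 macrophage markers and 1 of the 2 fibroblast markers were higher in B at an unadjusted p under 0.05 by limma. The largest differences in these lists were 3.04 and 2.29, and none was called.

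**Figure D3:**
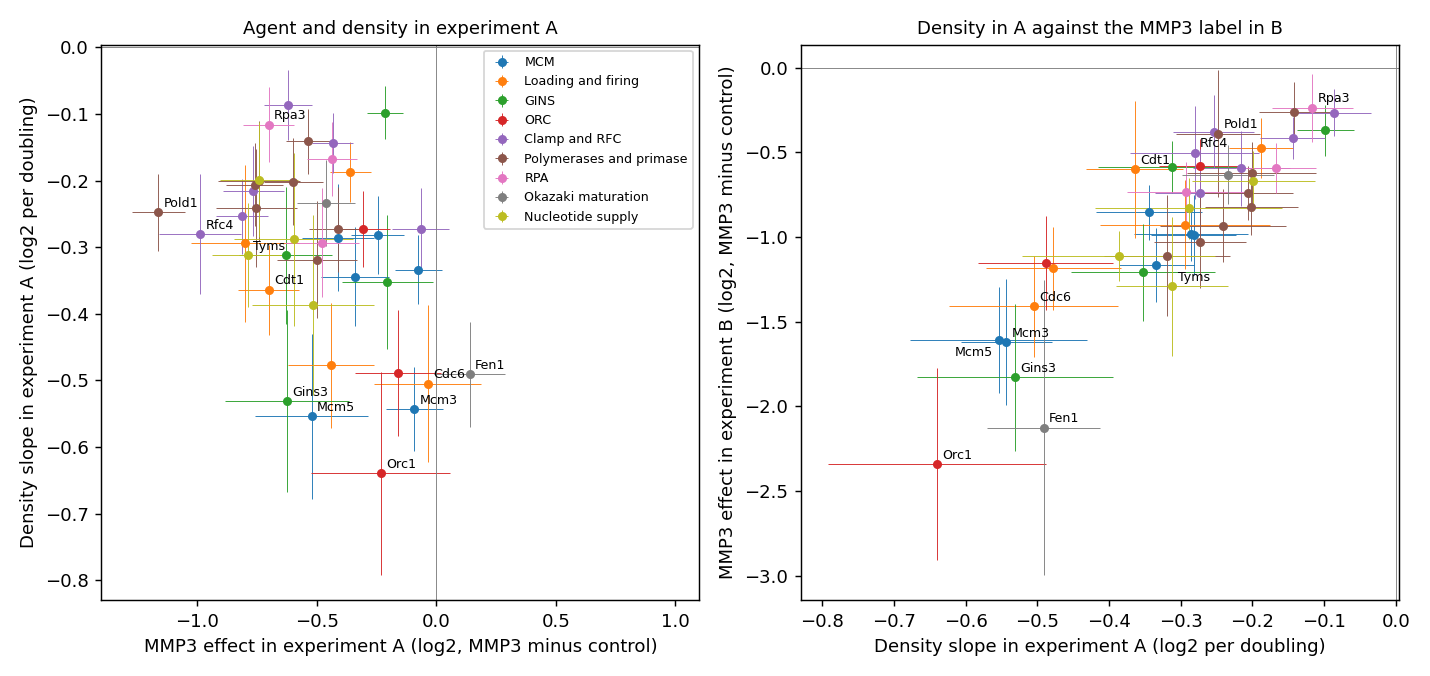
Left, density slope (log2 per doubling) against MMP3 effect (log2, MMP3 minus control) in experiment A for the 41 genes, coloured by complex; right, the MMP3 effect in experiment B against the density slope in A; bars are standard errors from the limma fits. Pold1 (-1.16) and Rfc4 (-0.99) lie farthest to the left, Orc1 (-0.64 per doubling) is lowest, and in the right panel, with all 8 arrays of B, the points run from Rpa3 to Orc1 (r = 0.89, and 0.41 without the 4 arrays that went against their label).

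Set against A array by array, the 41 genes placed the arrays of B as follows, by the root mean square difference in relative log2. Control 25K of B was nearest to control 50K of A (0.18) and control 100K of B to control 100K of A (0.34). Control 50K and control 250K of B were nearest to MMP3 100K of A (0.14 and 0.16), and farther from the arrays of their own label (0.56 and 0.47). MMP3 25K and MMP3 50K of B were nearest to control 250K of A (0.27 and 0.34), with MMP3 50K at 0.41 from its own label. MMP3 250K of B was nearest to MMP3 250K of A (0.89), and so was MMP3 100K of B, though at 1.09. These distances describe the arrays and were not tested.

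Over both experiments, with the experiment as a block, 15 of the 41 genes were lower with MMP3 by limma, where 1.41% of all tested genes fell. They were Mcm4, Cdc45, Gins2, Rfc2, Rfc5, Pola1, Pole, Prim1, Prim2, Rpa1, Rpa2, Lig1, Rrm1, Rrm2 and Tk1, and 40 of the 41 were lower at an unadjusted p under 0.05, where 8.89% of all tested genes were. The median effect was -0.71. Prim1 fell by 0.75 (SE 0.11), Prim2 by 0.86 (SE 0.15), Tk1 by 0.70 (SE 0.12) and Rfc2 by 0.42 (SE 0.07), all at adjusted p = 0.029, and Rrm2 by 0.86 and Rrm1 by 0.73 at adjusted p of 0.034 and 0.035. Orc1 (-1.44) and Gins3 (-1.31), with larger effects, did not pass. MMP3 was below control in all 7 pairs for 26 of the 41 genes, where 3.99% of all tested genes were, and no pair of B is left without the 4 arrays. The call hangs on single arrays and on the block: limma called 0 of the 41 with no block, 0 with each control and MMP3 pair as a block, and 0 with any of 10 of the 14 arrays left out, with 38 to 40 genes at an unadjusted p under 0.05 in each of these. It called 32 without MMP3 100K of B, and 23 without control 250K of A or without control 50K of B. It called 25 after quantile normalization. Calls over all 11812 tested genes, in either direction, grew in these fits too. They were 325 in the main fit and 1269, 602, 680 and 619 in these, in the same order. The density slope was called for 0 of the 41, with 36 lower at an unadjusted p under 0.05 (5.3% of all tested genes) and a median of -0.26. The interaction of agent and density was called for 0, with 7 negative at an unadjusted p under 0.05, where 1.05% of all tested genes were (Cdc45, Gins2, Rfc2, Pola1, Pole, Rpa3 and Tk1, each with a more negative slope under MMP3), and a median of -0.18. That p was reached by 2 genes without MMP3 250K of B and by 12 without control 250K of A, and the median was -0.08 after quantile normalization. Without the 4 arrays the median was -0.15 and 3 genes reached that p.

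Without the 4 arrays of B that went against their label by Ifit1, limma called 32 of the 41 lower for MMP3, where 39.9% of all tested genes changed in either direction, with a median of -0.58. It called 36 of the 41 negative for density, where 24.8% of all tested genes changed in either direction, with a median of -0.30 per doubling. The shares of all tested genes that were lower alone were not counted for these fits. Those arrays were set aside by the value of a measured gene that MMP3 changed in A, so these counts describe the 10 arrays that are left and are no independent test of the label.

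In the rest of the pathway, MMP3 effects in A were mostly negative for other replication factors and mixed for other steps of nucleotide synthesis. Among the former 31 effects were negative and 6 positive (83.8% negative). Among the latter 16 were negative and 10 positive (61.5% negative), where 54.2% of all tested genes were negative. Of 37 tested genes for other replication factors 7 fell (18.9%, against 10.5% of all tested genes) and 1 rose, with a median of -0.46. Ticrr, which helps to fire origins, fell by 0.95 (adjusted p = 0.032) and Pold3, a subunit of polymerase delta, by 0.91 (adjusted p = 0.039), while Chtf8, of an alternative clamp loader, rose by 0.50 (adjusted p = 0.048). Of 26 tested genes for other steps of nucleotide synthesis 4 fell (15.4%) and 2 rose, with a median of -0.29. Dut, which removes dUTP, fell by 0.76 (adjusted p = 0.041) and Dtymk, thymidylate kinase, by 0.68 (adjusted p = 0.041), whereas Samhd1, which breaks down deoxynucleotides, rose by 1.21 (SE 0.06, adjusted p = 0.012) and Ctps, which makes CTP, by 0.36 (adjusted p = 0.026). Over both experiments 7 of the 37 fell (18.9%) and 0 rose, Wdhd1 (-0.88) and Clspn (-0.82) most among those called. Of the 26, 5 fell (19.2%) and 0 rose, Cad (-0.91) and Shmt2 (-0.83) most among those called. In that fit 1.41% of all tested genes fell. Samhd1 had an effect of 0.01 (SE 0.48) over both. For these lists limma called 0 density slopes in A, where 14 of the 37 and 14 of the 26 were negative at an unadjusted p under 0.05 (14.2% of all tested genes). As limma called 0 of all tested genes in A with any array left out, and 0 over both experiments with no block or with pairs as a block, all these calls are lost in those fits.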

How the data were processed

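RNA of 14 dishes was measured on Affymetrix mouse arrays. The authors deposited log2 values from RMA, a tool that the submitters' processing notes name. Its version, further steps and the log base were not given in the sources used here; base 2 is the one RMA gives, and the centring of each probe set on its median was seen in the values. Of 45037 probe sets that are not controls, 34945 had 1 gene symbol in the platform annotation and were used (932 had several and 9160 were unnamed), with symbols updated through Entrez for 34741. Where a gene had several, the probe set of largest SD over all 14 arrays stood for it. For 28 of the 41 genes several probe sets passed the filter, and for 1 of these (Fen1) they differed in sign in A. Sizes differed as well. In A the Cdc45 probe set used gave -0.80 and another -0.10, and for Rrm1 these were -0.60 and -0.03. Mcm3 went the other way, at -0.09 for the one used and -0.52 for another.

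Fits were made with R 4.3.3 and limma 3.58.1 (lmFit, eBayes, Benjamini-Hochberg over the 11812 genes tested, threshold 0.05), with agent, log2 density centred on the arrays fitted, their product and, over both experiments, the experiment as a replicate block. The scripts were tested on simulated data. Signal over background is not known, and the number of arrays limits the precision.

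The 41 genes, their complexes and all lists were chosen with earlier results of these data known. Values on every array are given for the passing gene with the largest change in each complex, or for the one with the largest SD where none passed. The SE and adjusted p of Cdc45, which has no values by array here, were added after its value was seen. Alternatives changed the probe set rule, the filter, the scaling, the variance prior, the model and the arrays. Density centring on all 14 arrays, and the fits within B and between experiments without arrays that went against their label, with the correlations from them, were added after the data were seen.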

Additional observations from a re-analysis of the deposited data

How the results depend on the processing

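The MMP3 effect in A was called for 11 of the 41 genes, for 9 to 15 under the other scalings, probe set rule, variance prior and models, for 1 with no filter on SD, and for 0 with each of the 6 arrays left out. Its median of -0.50 was -0.74 after quantile normalization and ran from -0.61 to -0.30 over the arrays left out. The MMP3 effect over both experiments was called for 15 genes, 25 after quantile normalization, 0 with no replicate block, 0 with each matched pair as the replicate block, 32 without the 4 arrays of B that went against their label, and 0 to 32 with single arrays left out. Calls over all 11812 tested genes moved too, from 325 in the main fit to 619 after quantile normalization and 4711 without those 4 arrays. The density slope over both experiments was called for 0 genes and for 36 without those 4 arrays. The replicate block changed no other call. The median difference between the experiments in the density slope (0.03) turned to -0.22 without 3 arrays of B, to -0.03 without MMP3 250K of A, to -0.11 without control 50K of B and to -0.07 without control 250K of B, and reached 0.17 with another array left out and 0.20 after quantile normalization. In the fit to B without the 4 arrays, Pearson's r across the 41 genes turned from -0.48 to 0.53 between the MMP3 effects of A and B, and from 0.37 to -0.22 between the MMP3 effect in A and the slope in B. The causes were not tested. All other medians over the 41 genes kept their sign under every alternative run. Of the alternative values of genes called for MMP3 in A or over both, 275 lost the call, 213 kept it and 0 changed sign. Genes that were not called did change sign: for MMP3 in A, Cdc6 under 3 of 13 alternatives, Mcm3, Pcna and Fen1 under 2 each and Mcm2, Orc1 and Orc2 under 1 each, for MMP3 in B, Pold1 under 1 of 16, and for the slopes, Cdc45, Rfc1, Pola1 and Rrm1 in A and Cdt1 in B under 1 each. Signal over background is not known.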
